A study of Mus musculus with 2 samples.

Results

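The genes described here are 45 genes of the cell cycle and of DNA replication, taken by gene symbol from a list of cyclins, cyclin-dependent kinases and their inhibitors, pocket proteins, E2F factors, replication factors, deoxynucleotide enzymes and mitotic genes. All 45 were found among the 21829 gene symbols of the table, and 43 of them averaged 1 FPKM or more (fragments per kilobase of transcript and relative to the size of the library). None was listed at 0. The measured cells were splenic marginal zone (MZ) B cells, a population at the edge of the splenic follicles that meets antigen carried by the blood. They came from wild type, untreated male C57BL/6 mice and were divided by their surface level of CD80, a costimulatory protein, into a CD80high and a CD80low population with 1 RNA-seq library each. The sources used here do not give the age of the mice, how many were pooled or which further markers the sort used. The comparison addresses how the transcripts of both populations differ.

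A cell enters the cycle when D-type cyclins with CDK4 and CDK6, and then E-type cyclins with CDK2, phosphorylate the pocket proteins of the retinoblastoma family and release E2F factors. E2F factors drive the genes of DNA synthesis, among them the MCM helicase subunits, PCNA and the enzymes that make deoxynucleotides. Genes of mitosis follow later in the cycle under the B-MYB and FOXM1 factors and the DREAM complex, which acts through the CHR element of their promoters. Most mature B cells of an unimmunised mouse are in the resting state, which the inhibitor p27 (Cdkn1b) helps to hold.

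With 1 library per group there was no replicate check, so no test, p-value or spread between samples was computed here. Folds are the CD80high value divided by the CD80low value. The 95% interval printed after a fold is an approximate counting interval, which covers counting error only and leaves out all variation between animals, sorts and libraries. The libraries held about 25300000 fragments (CD80high) and 25100000 fragments (CD80low), as read from the spacing of low FPKM values. For directions, medians and counts past a limit, the ratio is log2((CD80high FPKM + 1)/(CD80low FPKM + 1)). It understates the difference of low genes, and a gene counts as different in size at 1.5-fold or more on that scale.

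Promoter letters are shown for 4 genes. Mcm6 stands for the replication genes, which were all lower in CD80high as deposited (2 of 7 when rescaled to the mean total), Cdk1 for the mitotic genes, which were divided in direction, and Tyms and Ccnb1ip1 are the members with the largest difference in either direction. Each line gives the 250 bases before the start of the gene on its own strand, 5′ to 3′, from the RefSeq promoter table (GRCm38.p6). Capitals mark the letters of 3 motifs on either strand: E2F (TTTCCCGC or TTTGGCGC), CHR (TTTGAA or TTCGAA) and the CCAAT box (CCAAT). No matches of different motifs overlapped in these windows. The Mcm6 window lies at chr1:128359706-128359955, the Cdk1 window at chr10:69352913-69353162, the Tyms window at chr5:30073626-30073875 and the Ccnb1ip1 window at chr14:50795729-50795978, all on the minus strand.
Mcm6: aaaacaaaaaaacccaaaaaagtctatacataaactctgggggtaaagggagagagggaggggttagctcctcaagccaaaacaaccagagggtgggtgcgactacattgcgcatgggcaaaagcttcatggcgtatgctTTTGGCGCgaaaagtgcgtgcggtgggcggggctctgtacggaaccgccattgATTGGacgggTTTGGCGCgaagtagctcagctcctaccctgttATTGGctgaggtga
Cdk1: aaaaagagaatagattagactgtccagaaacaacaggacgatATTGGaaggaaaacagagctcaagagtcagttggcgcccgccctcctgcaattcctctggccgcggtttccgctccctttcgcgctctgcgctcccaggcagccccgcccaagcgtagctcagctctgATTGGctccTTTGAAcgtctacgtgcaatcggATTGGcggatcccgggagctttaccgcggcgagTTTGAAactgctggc
Tyms: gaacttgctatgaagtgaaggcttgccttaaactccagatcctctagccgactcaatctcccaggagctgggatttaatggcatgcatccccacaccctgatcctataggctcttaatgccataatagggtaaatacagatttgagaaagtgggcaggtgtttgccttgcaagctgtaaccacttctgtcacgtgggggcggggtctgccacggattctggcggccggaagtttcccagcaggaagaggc
Ccnb1ip1: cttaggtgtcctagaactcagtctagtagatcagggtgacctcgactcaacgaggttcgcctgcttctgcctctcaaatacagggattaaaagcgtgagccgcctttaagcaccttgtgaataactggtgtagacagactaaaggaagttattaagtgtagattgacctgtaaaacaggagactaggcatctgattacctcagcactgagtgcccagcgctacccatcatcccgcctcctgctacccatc

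The Mcm6 window held E2F letters from 110 and from 47 bases before the start and CCAAT letters from 57 and from 14 bases before it. The Cdk1 window held CHR letters from 71 and from 15 bases before the start and CCAAT letters at 3 places. It also holds TTTCGCGC in lower case, a string close to the E2F letters that was not searched. Neither the Tyms nor the Ccnb1ip1 window held letters of any of these motifs, which says only that they are not in this window.

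Over the full windows of the table, from 250 bases before to 50 bases after the start, 36 of the 45 members had an entry. The E2F letters searched (TTTCCCGC or TTTGGCGC) stood in 7 of 15 genes of the replication, deoxynucleotide, S phase and E2F roles. They stood in 0 of 11 mitotic genes and in 0 of 10 of the remaining members. Other forms of E2F letters are not in these counts, so a window counted as 0 may hold them. CHR letters stood in 9 of 11 mitotic genes, in 4 of 15 and in 1 of 10. CCAAT letters stood in 10 of 11, 11 of 15 and 4 of 10. Among the 7985 genes with an entry and an average of 1 FPKM or more, 3.81% held the E2F letters, 16.6% the CHR letters and 43.7% the CCAAT letters. Among all 27025 genes of the promoter table, the shares were 1.80%, 21.7% and 41.1%. Letters in a window are a description and no sign of a bound factor, and the motifs were chosen after matches had been seen.

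Most members were close in level in both libraries. Of the 43 measured members, 38 (88.4%) lay within a 5-to-4 ratio of the plain FPKM values and 23 (53.5%) within 1.1-fold, where 83.2% and 48.8% of all 9955 genes averaging 1 FPKM or more did. Higher values in CD80high were listed for 17 members (39.5%) and lower values for 26, beside 46.4% of all genes above a ratio of 0 and 53.5% below it. The median ratio of the members was -0.05 (log2) and that of all genes -0.02. At 1.5-fold or more, 1 member was higher in CD80high, Ccnb1ip1, and 1 was lower, Tyms. Over all genes, 1.51% were higher and 0.894% were lower by that limit. At a limit of 5 to 4 on the log2(FPKM + 1) scale there were 2 members in each direction, with Ccne1 and Cdkn2d added, beside 5.66% and 7.5% of all genes, and at 2-fold 1 higher and 0 lower, beside 0.352% and 0.1%. The members whose ratios lay nearest below the 1.5-fold limit were Ccne1 at 0.48 and Cdkn2d at -0.41.

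The counting interval of the fold lay above 1 for 6 members and below 1 for 13, or 44.2% of the measured members together. The same held for 25% and 28.2% of all genes, 53.2% together. An interval away from 1 was therefore no rarer among all genes than among the members. In the authors' deposited table, made from 1 library per group, every member had a q-value of 0.999442, and the smallest p-value of a member was 0.0761, for Tyms.

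**Figure D1:**
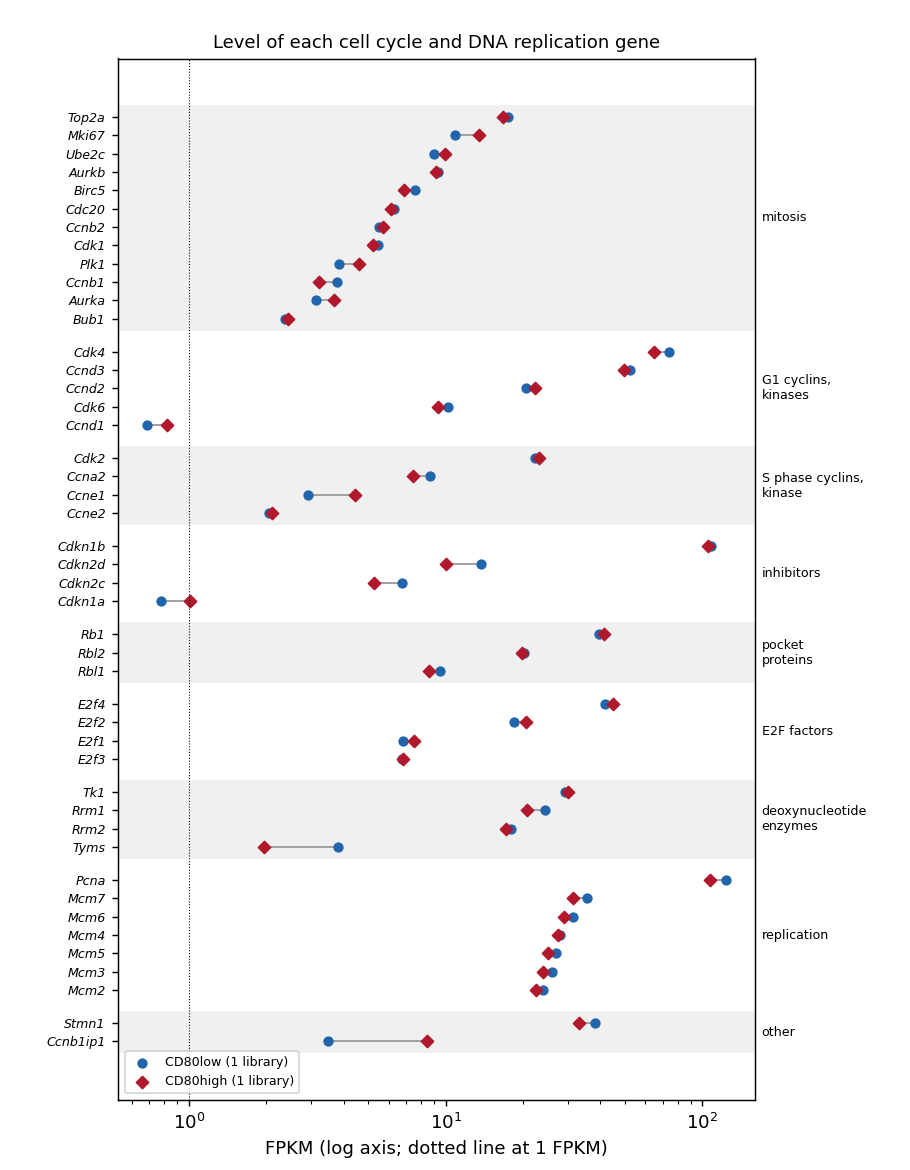
FPKM of each of the 45 genes (log axis) in the CD80low library (blue circles) and the CD80high library (red diamonds), 1 library each, grouped by role; the dotted line marks 1 FPKM. Levels run from under 1 FPKM for Ccnd1 to above 100 FPKM for Pcna and Cdkn1b, and only Ccnb1ip1, Tyms and Ccne1 show a gap of 1.5-fold or more.

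The entry into the cycle was represented by 5 genes of D-type cyclins and their kinases. Cdk4 was the highest of them, at 74.4 FPKM in CD80low and 64.9 FPKM in CD80high, a fold of 0.872 (0.824 to 0.923). Cyclin D3, Ccnd3, had 52.3 and 49.6 FPKM, cyclin D2, Ccnd2, had 20.6 and 22.2 FPKM, and Cdk6 had 10.2 and 9.35 FPKM. Cyclin D1, Ccnd1, was under the filter in both libraries, at 0.688 and 0.820 FPKM. Both populations thus had the D-type cyclins in the order D3, D2 and D1, with Ccnd3 2.54 times Ccnd2 in CD80low and 2.23 times in CD80high. As deposited, Ccnd2 alone of the 4 measured genes was higher in CD80high. When both libraries were rescaled to the mean of their FPKM totals, 3 of the 4 were higher, beside 73.8% of all genes. The intervals of Cdk4 and Cdk6 lay below 1 as deposited. The ratio of Cdk4 was -0.19 as deposited, -0.06 adjusted for transcript length and -0.04 rescaled, and that of Cdk6 was -0.12, -0.28 and 0.02. Exons of Ccnd1 share 1100 bases with LTO1 on the opposite strand, which was listed at 8.34 FPKM in CD80low and 9.09 FPKM in CD80high, and those of Cdk4 share 641 bases with Tspan31, at 45.9 and 43.9 FPKM. The library kit was directional, but the sources used here do not say if the strand was used in counting, so reads of such neighbours may not be told apart.

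Of the cyclins and the kinase of S phase, Ccne1 differed most. Cyclin E1 activates CDK2 at the start of DNA synthesis, and Ccne1 (chromosome 7, 38097984 to 38107534, minus strand, GRCm38) was listed at 2.90 FPKM in CD80low and 4.42 FPKM in CD80high, a fold of 1.53 (1.23 to 1.90). In the authors' deposited table, Ccne1 had a p-value of 0.0983. Its close relative Ccne2 had 2.05 and 2.10 FPKM, a fold of 1.03 (0.816 to 1.29). The level of Ccne1 was therefore 1.41 times that of Ccne2 in CD80low and 2.10 times in CD80high. Cdk2, the partner of both, had 22.2 and 23.0 FPKM. Cyclin A2, which carries CDK2 through S phase, went the other way: Ccna2 had 8.67 FPKM in CD80low and 7.48 FPKM in CD80high (0.863, 0.761 to 0.978). Ccna2 shares 510 exon bases with Exosc9 on the opposite strand, whose values were 22.4 and 16.1 FPKM. Ccne2 shares 609 exon bases with Ints8, also on the opposite strand, at 17.7 FPKM in CD80low and 18.7 FPKM in CD80high. The part of reads of Ints8 in the low values of Ccne2, and so in the ratio of Ccne1 to Ccne2, was not tested.

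The 3 measured inhibitors were all lower in CD80high as deposited (median ratio -0.30), and 2 of the 3 when both libraries were rescaled to the mean of their FPKM totals. Cdkn2d, which encodes p19, an inhibitor of CDK4 and CDK6, had 13.7 FPKM in CD80low and 10.1 FPKM in CD80high (0.735, 0.637 to 0.847). Cdkn2c, which encodes p18, an inhibitor of the same kinases, had 6.74 and 5.27 FPKM (0.782, 0.655 to 0.927). Cdkn1b, which encodes p27, was among the highest members in both libraries, at 108 and 105 FPKM, with an interval that holds 1 (0.934 to 1.001). Cdkn1a, which encodes p21 and is a target of p53, was at 0.781 and 1.012 FPKM, with a mean under the filter.

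The pocket proteins, which hold E2F factors back, had no common direction as deposited, but all 3 were higher when rescaled to the mean total. So were 73.8% of all genes, with a rescaled median of 0.12 for both. Rb1 was listed at 39.4 FPKM in CD80low and 41.4 FPKM in CD80high, Rbl2 (p130) at 20.1 and 19.8 FPKM and Rbl1 (p107) at 9.53 and 8.64 FPKM. The order Rb1, Rbl2, Rbl1 was the same in both libraries. Rb1 shares exon bases with Rcbtb2 and Lpar6 and Rbl2 with Aktip, all on the opposite strand.

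The 4 E2F genes were all higher in CD80high by small amounts as deposited (median ratio 0.12), and 3 of the 4 after adjustment for transcript length, with E2f3 at -0.05. E2f2, an activating factor, had 18.4 FPKM in CD80low and 20.6 FPKM in CD80high (1.12, 1.06 to 1.19). E2f4, which acts mainly as a repressor in resting cells, had 41.6 and 44.9 FPKM (1.08, 1.015 to 1.14). The activating factors E2f1 and E2f3 had 6.82 and 7.54 FPKM and 6.78 and 6.83 FPKM, with intervals that hold 1.

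Each of the 7 replication genes had a lower value in CD80high as deposited (median ratio -0.11), but 5 were higher and 2 lower when rescaled to the mean total (median 0.04, beside 0.12 for all genes). Pcna, the sliding clamp that holds DNA polymerase on its template, was the highest of all members in both libraries, at 124 FPKM in CD80low and 107 FPKM in CD80high (0.860, 0.825 to 0.897). The 6 subunits of the MCM helicase, which unwinds DNA at the fork, lay close together in level, from 23.8 to 35.5 FPKM in CD80low and from 22.4 to 31.2 FPKM in CD80high, and stood in the same order in both libraries. Mcm7 had 35.5 and 31.2 FPKM (0.879, 0.823 to 0.939), Mcm6 had 31.3 and 28.9 FPKM (0.925, 0.877 to 0.975) and Mcm3 had 26.0 and 24.0 FPKM (0.926, 0.868 to 0.987). Mcm4 had 28.0 and 27.4 FPKM, Mcm5 had 26.8 and 25.1 FPKM and Mcm2 had 23.8 and 22.4 FPKM, with intervals that reach 1. The intervals of 4 of the 7, Pcna, Mcm7, Mcm6 and Mcm3, lay below 1. Adjusted for transcript length the 7 were again all below 0 (median -0.10). The ratio of Pcna was -0.22 as deposited, -0.10 adjusted for length and -0.06 rescaled. Mcm7 shares exon bases with Cops6 and Ap4m1 on the opposite strand and with 2 microRNA genes on its own. Genes named as copies of Pcna are annotated.

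The enzymes that make deoxynucleotides included the member with the largest lower value. Tyms encodes thymidylate synthase, which makes dTMP (ENSMUSG00000025747, chromosome 5, 30058202 to 30073617, minus strand, GRCm38). It was listed at 3.79 FPKM in CD80low and 1.96 FPKM in CD80high, a level 1.94 times as high in CD80low (1.59 to 2.36). Its ratio of -0.70 rests on a low level, and with a pseudocount of 5 it no longer passed 1.5-fold. Thymidine kinase, Tk1, makes the same nucleotide by salvage and had 29.2 and 30.0 FPKM, so Tk1 stood at 7.71 times Tyms in CD80low and 15.3 times in CD80high. The subunits of ribonucleotide reductase had lower values in CD80high as deposited (rescaled to the mean total, Rrm2 was higher), with Rrm1 at 24.3 and 20.8 FPKM (0.854, 0.805 to 0.906) and Rrm2 at 18.0 and 17.1 FPKM (0.953, 0.871 to 1.04). A copy named Tyms-ps is annotated, and fragments of Tyms could be divided with it. Copies named Ccnb1-ps, Ccnb2-ps and Ccnd3-ps are annotated for other members.

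The 12 genes of mitosis were divided evenly as deposited, 6 higher and 6 lower in CD80high (median ratio 0.00). When rescaled to the mean total, 73.8% of all genes and 11 of these 12 were higher (medians 0.12 and 0.13). Mki67, the proliferation marker Ki-67, was the one whose interval lay away from 1, at 10.8 FPKM in CD80low and 13.5 FPKM in CD80high (1.24, 1.18 to 1.30). It is also the longest of the members (10061 nt), and adjusted for length its ratio was 0.13 in place of 0.29. Top2a, the topoisomerase that untangles sister chromatids, had 17.4 and 16.6 FPKM. Of the mitotic kinases, Plk1 had 3.85 and 4.60 FPKM, Aurka 3.13 and 3.67 FPKM, Aurkb 9.34 and 9.20 FPKM, Bub1 2.37 and 2.42 FPKM and Cdk1 5.44 and 5.19 FPKM. The B-type cyclins that partner CDK1 had 5.52 and 5.67 FPKM for Ccnb2 and 3.78 and 3.20 FPKM for Ccnb1. Birc5, the survivin subunit of the chromosomal passenger complex, had 7.58 and 6.87 FPKM. Of the genes of mitotic exit, the ubiquitin-conjugating enzyme gene Ube2c had 9.002 and 9.97 FPKM and the activator gene Cdc20 had 6.30 and 6.13 FPKM. The intervals of these 11 genes held 1, the largest fold among them being that of Plk1, 1.19 (0.991 to 1.44).

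Stmn1, which encodes the microtubule-destabilising protein stathmin, had 38.1 FPKM in CD80low and 33.1 FPKM in CD80high (0.870, 0.790 to 0.956). Its transcript is short (967 nt), and adjusted for length its ratio was 0.00 in place of -0.20.

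**Figure D2:**
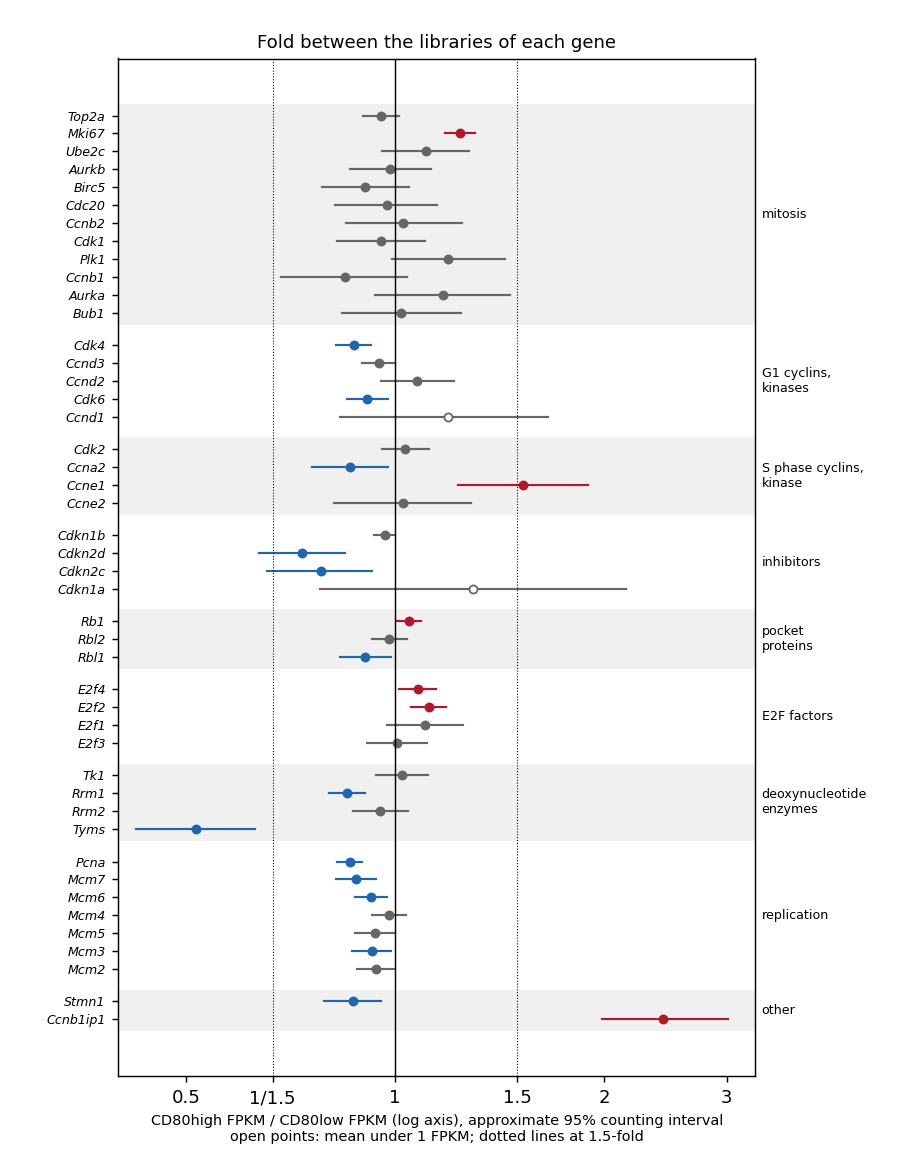
Fold of CD80high over CD80low FPKM (log axis) for each gene with its approximate 95% counting interval, grouped by role, 1 library per group; red marks intervals above 1, blue intervals below 1, grey those that hold 1, open points a mean under 1 FPKM, and dotted lines 1.5-fold. As deposited, the replication genes all lie left of 1 (2 of 7 when rescaled to the mean total) and the E2F genes right of it (3 of 4 when adjusted for length), and Ccnb1ip1 and Tyms stand farthest out.

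Ccnb1ip1 had the largest difference of all members. It encodes a ubiquitin ligase, also called HEI10, that binds cyclin B1 and in mouse is needed for crossing over in meiosis (ENSMUSG00000071470, chromosome 14, 50789248 to 50807732, minus strand, GRCm38). It was listed at 3.47 FPKM in CD80low and 8.44 FPKM in CD80high, a fold of 2.43 (1.99 to 3.01). In the authors' deposited table it had a p-value of 0.0921. Of its 2 annotated coding transcripts, one has a first exon (50807500 to 50807732) whose 233 bases all lie inside Rpph1, the gene of the RNA of ribonuclease P (50807449 to 50807767), on the same strand. The start of the promoter window shown above, 50795728, is that of the other transcript, which shares no base with Rpph1. The deposited value is for the whole gene, and the part of fragments of Rpph1 in it was not tested. Nearby genes on the chromosome were listed at 34.3 and 35.3 FPKM (Ttc5), 30.2 and 28.1 FPKM (Parp2) and 11.1 and 14.1 FPKM (Tep1) in CD80low and CD80high. The overlap and these neighbours were looked up after the value was seen.

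Levels kept their order within families. For 9 groups of related members (D-type, E-type and B-type cyclins, kinases, inhibitors, pocket proteins, E2F factors, MCM subunits and nucleotide enzymes), the order of FPKM from highest to lowest was identical in both libraries. Set against the middle of all genes, the median member had a level above 44.4% of genes in CD80low and above 44.0% in CD80high. The ratio of Pcna to Mki67 was 11.4 in CD80low and 7.93 in CD80high. These groupings were made after the values were seen. Most members were close in level in both libraries, which leaves little room for a change of order, and no other gene groups were compared.

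Other genes of the pathway were counted in 9 lists, 116 of whose 124 genes averaged 1 FPKM or more. Of these, 42 were higher in CD80high and 74 lower as deposited (median ratio -0.06), but 73 were higher and 43 lower when rescaled to the mean total (median 0.08, beside 0.12 for all genes). As deposited, Rpa3 was the only one at 1.5-fold or more. As for the members, 46.4% of all genes lay above a ratio of 0 as deposited, and 73.8% when rescaled. Every one of the 124 had a q-value of at least 0.999442 in the authors' deposited table.

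The lists of DNA synthesis leaned to lower values in CD80high, as the 7 replication members did, and their medians stayed below that of all genes under each scaling. In the list of origin licensing and firing, 13 of 15 genes were lower (median -0.20). Cdt1, which loads the MCM helicase, had 39.4 FPKM in CD80low and 38.7 FPKM in CD80high, and Orc4, a subunit of the origin recognition complex, had 20.01 and 20.5 FPKM. In the list of polymerases and fork proteins, 19 of 22 were lower (median -0.21). Rpa3, the small subunit of the protein that coats single-stranded DNA, had 26.2 and 16.5 FPKM (0.628, 0.539 to 0.731), with a p-value of 0.0742 in the authors' deposited table. Of the subunits of DNA polymerases delta and epsilon, Pold4 had 308 and 275 FPKM and Pole4 had 49.4 and 37.7 FPKM. The transcripts of Rpa3 (670 nt) and Pold4 (645 nt) are short. After length adjustment the ratio of Rpa3 was -0.35 in place of -0.64 and no longer passed 1.5-fold. That of Pold4 was 0.12 in place of -0.16, and that of Pole4 -0.23 in place of -0.38. Adjusted for transcript length, 11 of 15 and 16 of 22 genes were lower (medians -0.13 and -0.18). Rescaled to the mean total, 10 of 15 and 13 of 22 were lower (medians -0.05 and -0.08), while the median of all genes was 0.12.

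The lists of later steps had medians nearer to that of all genes than the licensing and polymerase lists did. They were not all nearer than the replication role. Relative to the median of all genes, both that role and the anaphase promoting complex lay at -0.09 as deposited. Adjusted for length, condensin and cohesin lay at -0.11 and the replication role at -0.10. The rescaled counts below stand beside 73.8% of all genes, which were higher under the same scaling. Of 13 kinetochore and checkpoint genes 6 were higher and 7 lower (median 0.00), and 9 were higher when rescaled to the mean total, with the checkpoint gene Bub3 at 40.1 and 35.5 FPKM and the centromeric histone gene Cenpa at 18.3 and 21.5 FPKM. Of 12 spindle and cytokinesis genes 9 were higher (median 0.04), and 11 when rescaled, with Kif23 at 6.13 and 6.51 FPKM and Prc1 at 5.54 FPKM in both. Of 10 condensin and cohesin genes 4 were higher (median -0.06), but 9 when rescaled and 1 when adjusted for length (medians 0.08 and -0.11), with the cohesin genes Stag2 at 102 and 106 FPKM and Rad21 at 48.3 and 45.1 FPKM. The anaphase promoting complex, which ends mitosis by marking cyclin B for degradation, had 12 of 15 genes lower (median -0.10). It had 10 lower when adjusted for length, but 8 higher and 7 lower when rescaled (median 0.05). Anapc13 had 94.6 and 76.5 FPKM and Anapc5 had 75.4 and 70.6 FPKM. The transcript of Anapc13 is short (592 nt), and adjusted for length its ratio was -0.02 in place of -0.30.

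Of 11 other cyclins, kinases and phosphatases 5 were higher (median -0.02), and 7 when rescaled, with Ccng1 at 46.4 and 48.1 FPKM and Ccng2 at 43.7 and 43.0 FPKM. Of 12 genes of the DREAM complex and other factors 5 were higher (median -0.03), but 9 when rescaled (median 0.10), with the histone chaperone gene Rbbp4 at 43.3 and 37.1 FPKM and the E2F partner gene Tfdp1 at 27.9 and 31.9 FPKM. Of 6 antiproliferative factors 5 were higher (median 0.09), and all 6 when rescaled. Over all genes, 73.8% were higher when rescaled. Btg1 and Btg2, which restrain growth of lymphocytes, had 545 and 553 FPKM and 155 and 167 FPKM.

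**Figure D3:**
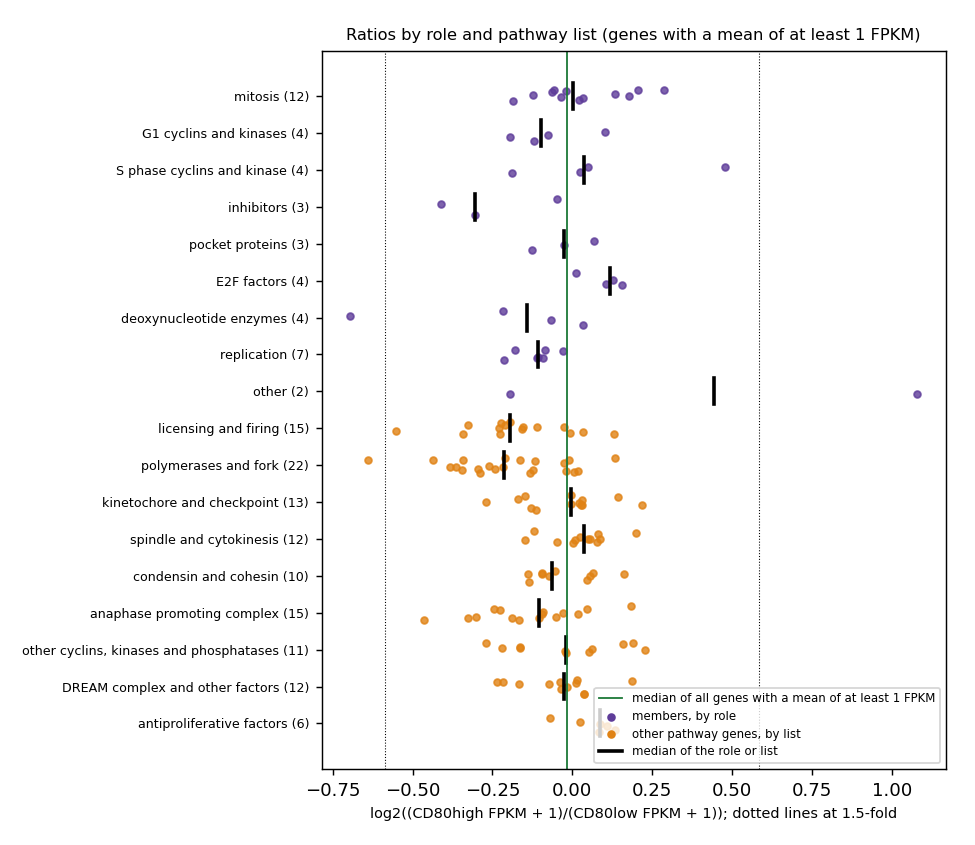
Ratio log2((CD80high FPKM + 1)/(CD80low FPKM + 1)) of each gene averaging 1 FPKM or more, by role for the members (purple) and by list for other pathway genes (orange), with the number of genes in brackets; black ticks mark medians, the green line the median of all genes and dotted lines 1.5-fold. The licensing and polymerase lists (medians -0.20 and -0.21) and the replication role (-0.11) lie left of the median of all genes, and the E2F factors (0.12) right of it.

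The ratio moved with transcript length over all genes. Its median was -0.18 in the shortest 20% of genes (median length 1057 nt) and 0.10 in the longest 20% (5576 nt). The 7 replication genes, at 1518 to 3633 nt, lay below the median of genes of their length. The total FPKM was 551206 in CD80high and 613742 in CD80low, and rescaling both to their mean raised every ratio by 0.16 (log2) before the pseudocount. Members above 0 then numbered 33 of 43 (76.7%), beside 73.8% of all genes. The direction of a small ratio therefore depends on the scaling, while the place of a role relative to all genes moved little under rescaling. Length adjustment moved some places more. Relative to the median of all genes, pocket proteins went from -0.01 to -0.10 and the G1 role from -0.08 to -0.04. The kinetochore list went from 0.01 to -0.07, and the replication role from -0.09 to -0.10.

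**Figure D4:**
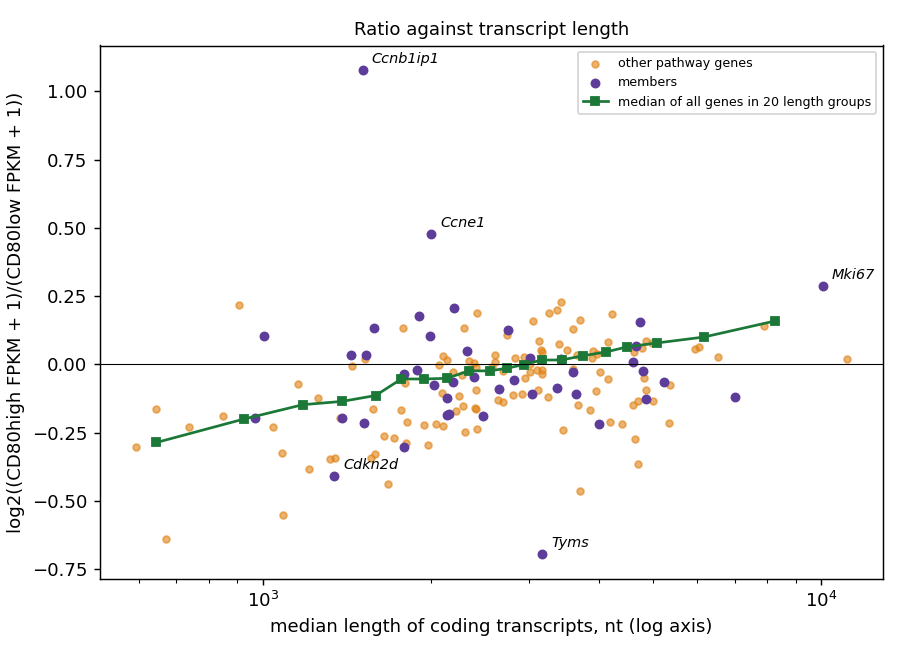
Ratio log2((CD80high FPKM + 1)/(CD80low FPKM + 1)) against median length of the coding transcripts (log axis) for members (purple) and other pathway genes (orange) averaging 1 FPKM or more; green squares give the median of all such genes in 20 groups of length. The median climbs with length, and Ccnb1ip1, Ccne1, Cdkn2d and Tyms lie away from it.

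Markers of the labelled cells were present in both libraries, with B cell markers summing to 4375 FPKM in CD80low and 3900 FPKM in CD80high and marginal zone markers to 1994 and 2111 FPKM. Markers of T cells, natural killer cells, macrophages and neutrophils were higher in CD80high for 18 of 20 genes and lower for 1. Their sums were 23.3 and 42.1 FPKM, and Ly6g was listed at 0 in both libraries. Of these 20 genes, 11 averaged under 1 FPKM. Of the 9 others, 8 were higher and 1, Prf1, was lower. Over all 21829 gene symbols without the filter, 7465 were higher and 6748 lower. The highest of the 20 were Prf1 (10.6 and 10.01 FPKM) and Cd68 (6.81 and 9.16 FPKM). The 6 plasma cell and plasmablast markers were all higher in CD80high, with sums of 222 and 302 FPKM. Irf4 (148 and 198 FPKM) and Xbp1 (53.0 and 58.0 FPKM) made up most of these sums. Jchain had 17.8 and 39.9 FPKM and Prdm1 2.42 and 5.83 FPKM. Sdc1 (0.630 and 0.879 FPKM) and Tnfrsf17 (0.0728 and 0.0749 FPKM) averaged under 1 FPKM, and Tnfrsf17 was nearly equal. Germinal centre markers, of a B cell type that divides, were higher for 3 of 6 genes and lower for 3, with sums of 19.9 and 16.9 FPKM. Of the markers of erythroid precursors reported here, 5 were higher and 1 was lower, with sums of 27.6 and 28.7 FPKM, mostly Tfrc. The part of these cell types in the results above was not tested. In bulk libraries such as these, fewer cycling cells and less RNA per cell cannot be told apart.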

How the data were processed

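RNA of 1 CD80high and 1 CD80low library was sequenced. Per the submitters' processing notes, the build was mm10 and the tools included STAR 2.6 and Cufflinks 2.2.1. The values deposited by the authors were taken as FPKM from the Cufflinks tools, since no header names their unit. Each gene's p-value and q-value were deposited by the authors too, from 1 library per group. Library preparation was directional, per the labels' protocols.

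Rows of a repeated symbol (24 symbols) were summed, and genes averaging 1 FPKM or more were kept. With 1 library per group no test was run. Files hold no counts, so the value of 1 fragment was read from the spacing of low FPKM times length in genes with 1 transcript over 3000 nt (100 and 101 genes), and fragments per gene were approximated with it. Fold intervals are conditional Clopper-Pearson intervals (95%). Both steps were tried on simulated counts with counting error only and with the same lengths that the steps use. Such data cannot show how wrong lengths, mixed transcripts or shared reads affect the real intervals. Lengths and positions came from GENCODE M21 (GRCm38), as medians of the coding transcripts of the basic set, and promoters from RefSeq. Python 3.11.15, numpy 2.4.6, pandas 2.3.3 and scipy 1.17.1 were used.

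The members and lists were chosen with earlier results of these data known. All members are named, with the 2 genes of highest mean from each other list and any at 1.5-fold or more. The depth setting (1 of 9 tried), the length definition (1 of 2 tried), the promoter motifs and the promoters printed were settled after values were seen. 1 marker gene is not reported here.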

Additional observations from a re-analysis of the deposited data

How the results depend on the processing

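No paired analysis was possible because there is 1 library in each group. Another pseudocount, filter, centring, rescaling, length adjustment, treatment of repeated symbols, source sheet and limit were tried. The members' median ratio (-0.05) and the 17 members above 0 moved past their limits under rescaling to the mean total alone, to 0.10 and 33. The 1 member at 1.5-fold or more higher in CD80high became 2 with a pseudocount of 0.1, under rescaling and at a limit of 5 to 4. The 1 lower member became 0 with a pseudocount of 5, a mean of at least 5 FPKM, rescaling or a limit of 2-fold, and 2 at a limit of 5 to 4. Of the single ratios, 33 of 313 comparisons moved by more than the half-width of the gene's counting interval, 23 of them under rescaling. Of the list medians, 9 of 162 moved by more than the median half-width over their genes, all under rescaling. The columns used from the overview sheet held the same values for every gene and could not move a result.

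Alternatives added after seeing the data concern the counting intervals. Members above and below a fold of 1 numbered 6 and 13 as reported, 18 and 3 after rescaling (50.1% and 9.93% of all genes), and 9 and 14 after length adjustment (23.9% and 22.7%). The first length definition, the median of all coding transcripts, was replaced because it held partial transcripts. It gave 6 and 12 (22.5% and 26.2%), with intervals of 0.319 to 0.844 for Tyms and 1.88 to 3.16 for Ccnb1ip1. The 8 other depth settings put the totals between 21200000 and 27400000 fragments and gave 6 members above and 13 to 17 below (23.7% to 25.6% and 26.4% to 29.1% of all genes). A further set of E2F letters (TTCCCGCC) was also looked at and left out. With it 8 of 15 genes of the replication, deoxynucleotide, S phase and E2F roles held E2F letters, 0 of 11 mitotic genes, and 7.43% of genes averaging 1 FPKM or more. Depth limits the lowest members most: the interval of Cdkn1a runs from 0.781 to 2.15.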
